A study of Mus musculus with 4 samples.

Results

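Fibroblast growth factor (FGF) ligands and their receptors were followed in whole mouse mandibles at stage E11.5 with raised Bmp4, a bone morphogenetic protein (BMP). The set was a list of 10 genes chosen by name, the ligand genes Fgf8, Fgf9, Fgf20, Fgf10, Fgf18 and Fgf15 and the receptor genes Fgfr1, Fgfr2, Fgfr3 and Fgfr4, with older symbols mapped to current ones. All 10 genes were on the array, with 12 of its 29922 probes, out of 16637 genes that the annotation named. Expression was read on 4 single-colour arrays carrying Cy5-labelled RNA. The groups were 2 arrays of mandibles with conditional Bmp4 overexpression (Bmp4 OE), induced with doxycycline for 24 hours, and 2 arrays of wild-type control mandibles, all on a C57BL/6 background. The labels name neither the driver of the Bmp4 transgene nor the cells in which it was active. They also do not say whether the controls received doxycycline, so an effect of Bmp4 cannot be told apart from one of the drug or of the transgenes. Nothing in the labels shows that the arrays of a group stand for different embryos. The p-values therefore cover the spread between these particular samples, and that spread may be purely technical.

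FGF ligands are secreted proteins that bind tyrosine kinase receptors together with heparan sulphate and activate the ERK kinase cascade. Cells answer with ETS transcription factors and with inhibitors such as Sprouty proteins and Dusp6, which limit the signal. In the mandibular arch, FGF8 and FGF9 from the oral epithelium act on the neural crest mesenchyme below, where they support its growth and set the proximal domain, and BMP4 from the distal epithelium is known to oppose FGF8 there. The mesenchyme makes ligands of its own, among them FGF10, which acts back on epithelium. The epithelial and mesenchymal classes used here follow these known sites of expression and were not measured, because each array held the whole mandible.

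The values are log2 intensities that share 1 distribution on every array, with a median of 7.95, a lower quartile of 6.79 and a maximum of 16. Arrays of 1 group correlated across probes with r = 0.993 for Bmp4 OE and 0.993 for control, and arrays of different groups with r between 0.974 and 0.981. Bmp4 read 15.27 and 15.31 in the Bmp4 OE arrays, against 11.96 and 12.07 in controls, so the labels and the induced gene go together. Markers of mandibular mesenchyme were well above the lower quartile, with 13.91 and 13.85 for Pdgfra in Bmp4 OE arrays and 13.86 and 13.85 in controls. Hoxa2, a gene of the second arch, read 7.62 and 7.59 at its brighter probe in Bmp4 OE arrays and 7.24 and 7.42 in controls. These values were above the lower quartile. The other Hoxa2 probe read 7.04 and 7.17 in Bmp4 OE arrays and 6.59 and 6.74 in controls, with both controls below the lower quartile.

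With Bmp4 overexpression 4 of the 6 FGF ligand genes of the set fell and 0 rose, and of the 4 receptor genes 1 fell and 1 rose. The 10 genes were chosen with earlier results of these data known. Of 12 other secreted FGF ligands measured, 0 fell and 1 rose. Of the 10 genes, 5 fell (Fgf10, Fgf8, Fgf9, Fgfr1 and Fgf18), 1 rose (Fgfr2) and 4 did not pass (limma on the brightest probe of each gene, Benjamini-Hochberg adjusted p under 0.05 over all probes). Over all named genes 16.9% passed, 9.54% lower and 7.39% higher. The median log2 fold change of the 10 genes was -0.45, and that of all named genes was 0. Both Bmp4 OE arrays lay below both controls for 6 of the 10 genes, against 32.3% of all named genes, and above both for 2 of the 10, against 31.0%. At an unadjusted p under 0.05, 6 of the 10 were lower and 2 higher, where 18.8% of all named genes were lower and 17.6% higher. Leaving out any single array left 0 of the 10 genes, and 0 of all probes, past the adjusted threshold, with 1 residual degree of freedom and the lone array assumed to vary like the pair in the other group. At the unadjusted p, 5 genes were lower and 1 higher without Bmp4 OE replicate 2 (27.4% of all named genes in either direction), and 5 and 2 without Bmp4 OE replicate 1 (24.7%). The counts were 5 and 1 without control replicate 1 (22.7%) and 6 and 1 without control replicate 2 (28.7%). Without moderation of the variance, and with the replicate number as a block, 0 of the 10 genes were called as well.

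**Figure D1:**
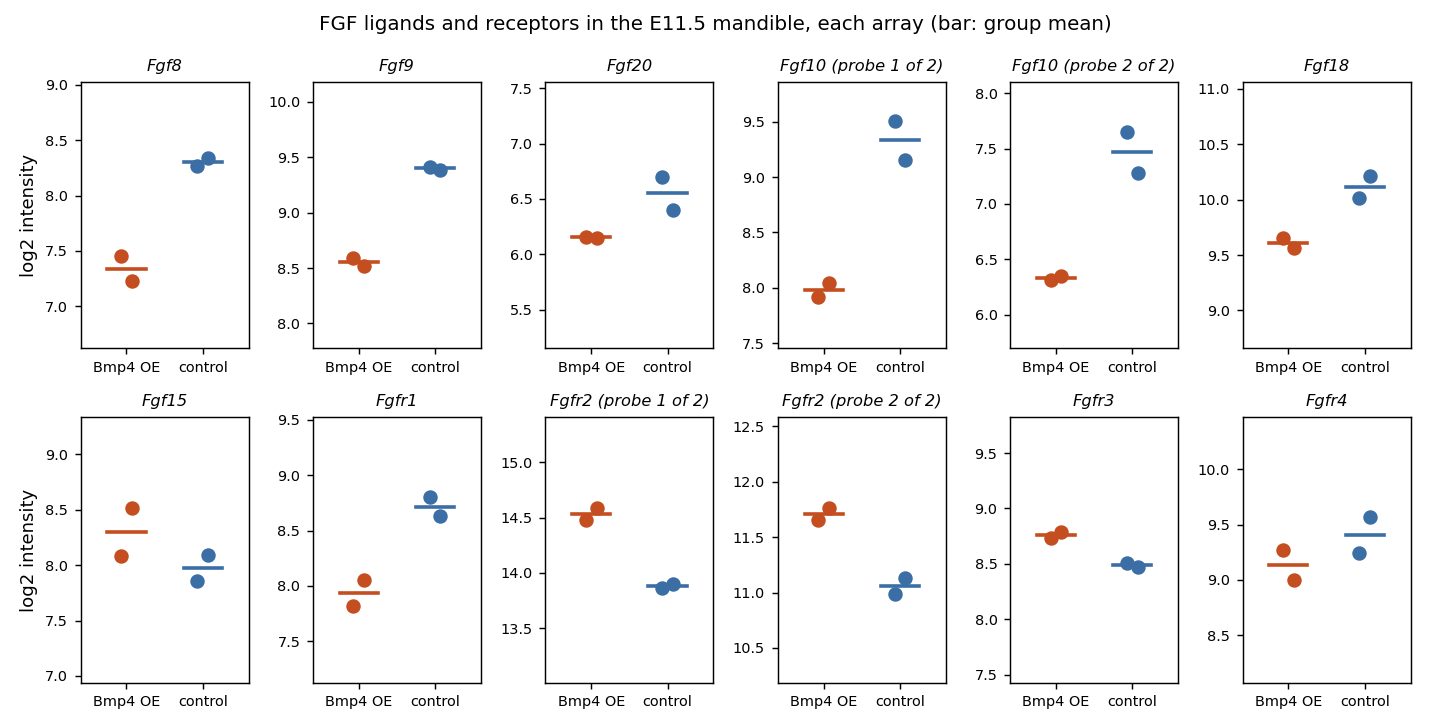
Log2 intensity of the 12 probes of the 10 FGF genes on each array, Bmp4 OE on the left and control on the right of each panel. Points are single arrays, bars are group means, and every panel spans the same number of log2 units. Both Bmp4 OE arrays lie below both controls for Fgf8, Fgf9, Fgf20, Fgf10, Fgf18 and Fgfr1 and above both for Fgfr2 and Fgfr3, while the groups overlap for Fgf15 and Fgfr4.

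The promoters of members that passed are shown because these genes moved in one comparison, in which a BMP ligand was raised. RefSeq (GRCm38.p6) promoter entries matched 6 of the 10 genes, of which Fgf9, Fgf10 and Fgf18 fell and Fgfr2 rose. Each sequence is the 250 bases before the annotated start, 5′ to 3′ on the gene's strand: chr14:58072436-58072685 on the plus strand for Fgf9, chr13:118714449-118714698 on the plus strand for Fgf10, chr11:33147401-33147650 on the minus strand for Fgf18 and chr7:130266809-130267058 on the minus strand for Fgfr2. Capitals mark CAGAC on either strand (GTCTG on the reverse), a short motif that SMAD proteins, the transducers of BMP and TGF-beta signals, are known to bind.
Fgf9: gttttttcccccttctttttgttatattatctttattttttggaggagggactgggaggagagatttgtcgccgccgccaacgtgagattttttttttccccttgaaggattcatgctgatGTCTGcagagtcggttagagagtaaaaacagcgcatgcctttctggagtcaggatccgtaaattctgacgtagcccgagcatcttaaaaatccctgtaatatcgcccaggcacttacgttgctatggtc
Fgf10: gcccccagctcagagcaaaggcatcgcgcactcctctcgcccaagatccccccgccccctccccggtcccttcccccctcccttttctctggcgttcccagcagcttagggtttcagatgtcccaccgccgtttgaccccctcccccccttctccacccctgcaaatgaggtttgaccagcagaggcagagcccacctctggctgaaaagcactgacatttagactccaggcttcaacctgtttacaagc
Fgf18: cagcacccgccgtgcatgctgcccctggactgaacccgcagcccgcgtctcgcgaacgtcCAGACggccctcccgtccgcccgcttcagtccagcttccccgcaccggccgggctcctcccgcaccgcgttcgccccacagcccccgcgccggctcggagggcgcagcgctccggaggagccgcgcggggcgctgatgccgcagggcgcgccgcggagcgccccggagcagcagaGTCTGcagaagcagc
Fgfr2: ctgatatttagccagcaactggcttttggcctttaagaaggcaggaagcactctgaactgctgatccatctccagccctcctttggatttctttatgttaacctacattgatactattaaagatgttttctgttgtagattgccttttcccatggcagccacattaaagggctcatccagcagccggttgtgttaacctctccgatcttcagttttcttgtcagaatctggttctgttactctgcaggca
The Fgf18 promoter held 2 copies of CAGAC, 190 and 15 bases before the start, the Fgf9 promoter 1 copy, 129 bases before it, and the Fgf10 and Fgfr2 promoters 0. Of all 32851 promoter entries of this length, 42.2% held the motif. The GC-rich SMAD motif GGCGCC, searched on both strands and not overlapping with CAGAC, was in none of these 4 windows, in both entries of Fgfr3 and in 9.59% of all entries. The share of G and C was 44.8% for Fgf9, 61.2% for Fgf10, 77.2% for Fgf18 and 44.0% for Fgfr2, with a median of 52.4% over all entries. A match is a run of letters and not a measured binding site, and binding was not measured here.

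Among the epithelial ligands, Fgf8 and Fgf9 fell and Fgf20 did not pass. Fgf8, which organises the proximal arch and keeps its mesenchyme alive, read 7.45 and 7.23 in Bmp4 OE arrays, against 8.27 and 8.34 in controls. The Bmp4 OE arrays were both lower, and the gap between the groups was wider than the spread inside either. The change was 1.95-fold, with a log2 fold change of -0.965 and a 95% interval of -1.27 to -0.66 (adjusted p = 0.0119 in limma). Of all named genes, 1.97% had a lower log2 fold change than Fgf8.

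Fgf9, an oral epithelial ligand that signals to the mesenchyme through the c isoforms of the receptors, gave the tightest replicates of the lowered ligands. It read 8.59 and 8.52 in Bmp4 OE arrays, against 9.41 and 9.39 in controls. The groups lay well apart, and Fgf9 was 1.80-fold lower, a log2 change of -0.845 ± 0.10 (standard error, adjusted p = 0.0111 in limma). Fgf20, a close relative of Fgf9 that is known from dental epithelium, was dim. Its probe read 6.16 and 6.15 in Bmp4 OE arrays and 6.70 and 6.40 in controls, below the lower quartile on all 4 arrays, where the array gives little range. The groups did not overlap, but the log2 fold change of -0.395 (95% interval -0.73 to -0.06) was not called (adjusted p = 0.105 in limma).

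Both mesenchymal ligands fell, Fgf10 more than any other member. Fgf10, which acts mainly on the b isoform of FGFR2 in epithelium, read 7.92 and 8.04 at its brighter probe in Bmp4 OE arrays, against 9.51 and 9.15 in controls. It was 2.55-fold lower, with a log2 fold change of -1.35 and a 95% interval of -1.73 to -0.97 (adjusted p = 0.00949 in limma). The controls spread more than the Bmp4 OE arrays did, and every control value was above every Bmp4 OE value. The other Fgf10 probe read 6.31 and 6.35 in Bmp4 OE arrays, below the lower quartile, and 7.65 and 7.28 in controls. It gave a log2 fold change of -1.14 and also passed (adjusted p = 0.0133 in limma), so both probes of the gene fell, on the same 4 arrays. A lower log2 fold change than that of the brighter probe was found for 0.697% of all named genes.

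Fgf18, a ligand of skeletal mesenchyme that is known to act on cartilage and bone precursors, changed less. It read 9.65 and 9.56 in Bmp4 OE arrays, against 10.02 and 10.21 in controls. The groups did not overlap, and the 1.42-fold lower level (log2 fold change -0.51, 95% interval -0.80 to -0.22) was close to the threshold (adjusted p = 0.0443 in limma). Of all named genes, 8.99% had a lower log2 fold change.

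Fgf15, known as a gut hormone that restrains bile acid synthesis and in embryos from neural tissue, was the single ligand of the 6 with a higher mean. It read 8.08 and 8.52 in Bmp4 OE arrays and 7.86 and 8.09 in controls, and the groups overlapped. The log2 fold change of 0.325 had a 95% interval of -0.12 to 0.77, which includes no change and a rise of more than Fgfr2 showed (adjusted p = 0.269 in limma). In the RefSeq table the Fgf15 locus overlaps a long non-coding RNA gene, and so does that of Fgfr1. The positions of the probes were not used here, so signal from such neighbours cannot be told apart.

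The receptor genes went in different directions. Fgfr1, the main FGF receptor of mesenchyme, read 7.82 and 8.05 in Bmp4 OE arrays, against 8.80 and 8.63 in controls. Both Bmp4 OE arrays were lower, and the 1.72-fold lower level passed (log2 fold change -0.78, 95% interval -1.11 to -0.45, adjusted p = 0.0223 in limma). Fgfr2, whose b isoform is epithelial and whose c isoform is mesenchymal, rose at both of its probes. The brighter read 14.48 and 14.59 in Bmp4 OE arrays, against 13.86 and 13.90 in controls, with a log2 fold change of 0.655 (95% interval 0.39 to 0.92, adjusted p = 0.0201 in limma). The other read 11.66 and 11.76 in Bmp4 OE arrays, against 10.99 and 11.13 in controls, with a log2 fold change of 0.65 (adjusted p = 0.0234 in limma). The probes read different parts of the scale and gave nearly the same change, 1.57-fold at each, and neither is assigned to an isoform by the annotation.

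Fgfr3 and Fgfr4 did not pass. Fgfr3, a receptor of cartilage and of some epithelia, read 8.73 and 8.79 in Bmp4 OE arrays and 8.51 and 8.47 in controls. The groups did not overlap, and the log2 fold change of 0.27 had a 95% interval of 0.02 to 0.52 (adjusted p = 0.132 in limma). Fgfr4, a receptor of embryonic muscle and liver, read 9.27 and 9.0 in Bmp4 OE arrays and 9.24 and 9.57 in controls. These groups overlapped, and the log2 fold change of -0.27 had a 95% interval of -0.67 to 0.13 (adjusted p = 0.306 in limma), and the size of the fall in Fgf18 lies inside that interval.

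**Figure D2:**
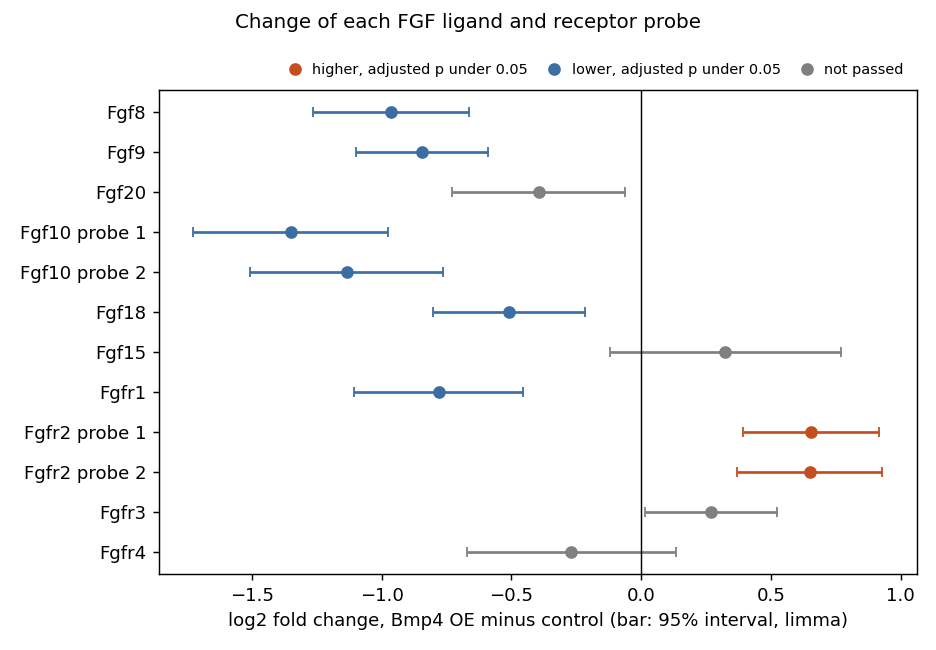
Log2 fold change of Bmp4 OE over control for each of the 12 probes, with its 95% interval from limma. Blue points passed as lower and orange points as higher at an adjusted p under 0.05, and grey points did not pass. Fgf10 has the lowest values, -1.35 and -1.14, and both Fgfr2 probes lie near 0.65.

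The 3 epithelial ligands averaged a log2 fold change of -0.735, and the 2 mesenchymal ligands averaged -0.93. Relative to the control mean, the epithelial ligands stood at -0.685 and -0.785 in the 2 Bmp4 OE arrays and at 0.04 and -0.04 in the controls. The mesenchymal ligands stood at -0.94 and -0.92 in the Bmp4 OE arrays and at 0.04 and -0.04 in the controls. The epithelial change was thus less negative by 0.195 log2 units, a description of 5 chosen genes with no test. That difference rests on single ligands. It was -0.225 without Fgf10, 0.615 without Fgf18, 0.31 without Fgf8 and 0.025 without Fgf20.

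Markers of the source tissues did not all move with the ligands. Of 19 measured epithelium markers, 5 rose, 3 fell and 11 did not pass, against 7.39% of all named genes higher and 9.54% lower. Their mean log2 intensity was 10.45 and 10.57 in Bmp4 OE arrays and 10.40 and 10.37 in controls, so it was higher while Fgf8 and Fgf9 were lower. Their summed linear intensity was 53014 and 55650 in Bmp4 OE arrays and 57915 and 61014 in controls, lower in Bmp4 OE, and the bright keratin gene Krt14 fell with a log2 fold change of -0.79. None of the 19 was below the lower quartile on all 4 arrays. Cdh1, the epithelial cadherin, and the simple-epithelium keratin genes Krt8 and Krt18 rose, with log2 fold changes of 0.915, 1.225 and 1.195. The brightest probe of Tfap2c, an ectodermal transcription factor, fell with -1.40, while none of its other 3 probes passed, at 0.24, 0.435 and 0.25. For Epcam, an adhesion molecule of most epithelia, the log2 fold change was -0.41 (adjusted p = 0.123 in limma), and for Trp63, the regulator of stratified epithelium, it was 0.21 (adjusted p = 0.379). In whole mandibles, fewer cells of a type and less RNA per cell cannot be told apart.

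Of 17 mesenchyme markers, 3 rose, 5 fell and 9 did not pass, against the same shares of all named genes, and 0 were below the lower quartile on all 4 arrays. Their mean log2 intensity was 12.70 and 12.56 in Bmp4 OE arrays and 12.76 and 12.78 in controls, and their summed linear intensity 253971 and 240872 in Bmp4 OE arrays and 261662 and 255894 in controls. Twist2 and Twist1, basic helix-loop-helix factors of mesenchyme, fell with log2 fold changes of -1.59 and -1.19, Prrx2, a homeobox gene of arch mesenchyme, rose with 1.17, and Dcn, which encodes the matrix proteoglycan decorin, rose with 0.855 at its brightest probe. Neither Pdgfra nor Prrx1 passed, with log2 fold changes of 0.03 and -0.17. The part that any change in tissue make-up has in the lower ligand levels was not tested.

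**Figure D3:**
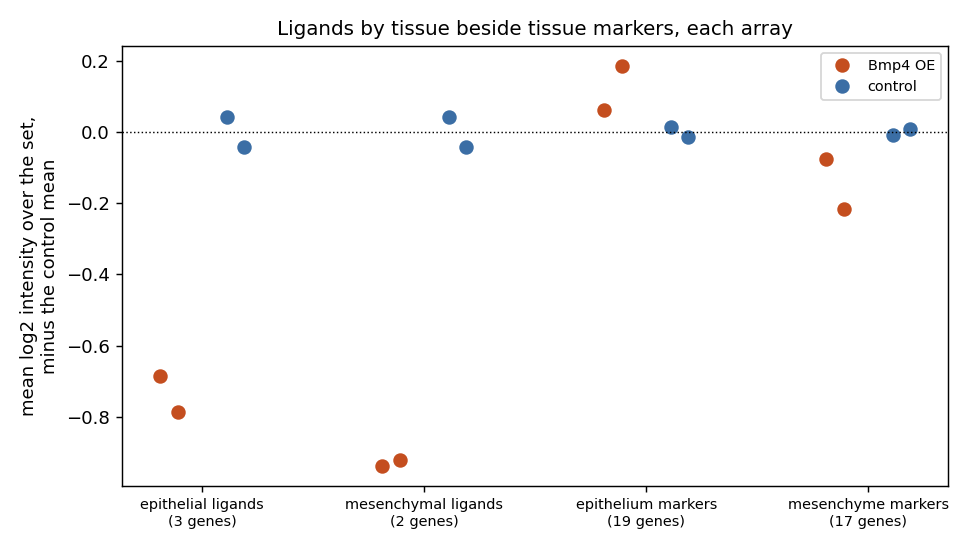
Mean log2 intensity over the epithelial ligands, the mesenchymal ligands, the epithelium markers and the mesenchyme markers on each array, minus the mean of the controls. Points are single arrays, Bmp4 OE left of control in each set. Both ligand sets lie more than 0.6 log2 units below 0 in the Bmp4 OE arrays, while the epithelium markers lie slightly above and the mesenchyme markers slightly below it.

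Other cell types that a dissected mandible holds were read from fixed marker lists. Over all named genes 7.39% were called higher and 9.54% lower, and 17.6% and 18.8% at an unadjusted p under 0.05. Of 11 neuron markers 2 rose and 0 fell, with 5 higher and 1 lower at an unadjusted p under 0.05 in limma. The 2 were Isl1, which the mandibular mesenchyme can also express, and Dcx, a neuronal microtubule protein. Their log2 fold changes were 2.98 and, at the brightest Dcx probe, 0.925. The other Dcx probes gave 0.68, which passed, and 0.175 and 0.095, which did not. Of 11 muscle markers 4 rose and 0 fell, with 5 and 0 at the unadjusted p, led by the myosin light chain gene Myl4 with 0.895 and the troponin gene Tnnt1 with 1.34. Of 9 endothelium markers 1 rose, the junction gene Cldn5 with 0.56, and 0 fell, with 5 and 0 at the unadjusted p. Of 9 erythroid and macrophage markers 3 rose, the complement genes C1qb and C1qa and the mannose receptor gene Mrc1, and 1 fell, the haem synthesis gene Alas2 with -0.585. Of 9 genes of arch identity 2 rose, Hand1 and Dlx3, and 1 fell, Gsc, while Hand2 and Dlx5 did not pass, at -0.02 and 0.11.

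The FGF ligand genes outside the set of 10 gave 1 call. Of 12 other secreted ligands, 1 rose, 0 fell and 11 did not pass, and the share called higher, 8.33%, was near the 7.39% of all named genes. At an unadjusted p under 0.05 in limma 2 were higher and 1 lower, against 17.6% and 18.8% of all named genes, and their median log2 fold change was -0.03. Fgf22, known from skin and as a presynaptic organiser in the brain, read 13.15 and 13.10 at its brighter probe in Bmp4 OE arrays, against 11.39 and 11.63 in controls. That is a 3.06-fold higher level with a log2 fold change of 1.62 (adjusted p = 0.00448 in limma). The other Fgf22 probe stayed under the lower quartile on all arrays and changed by 0.045 log2 units (adjusted p = 0.819), so the probes disagree. Of the 12, 4 (Fgf3, Fgf4, Fgf6 and Fgf7) were below the lower quartile on all 4 arrays. Fgf3, Fgf4 and Fgf7 had log2 fold changes of -0.005, 0.065 and 0.095, Fgf2 and Fgf1 had -0.055 and -0.27, and Fgf5 and Fgf6 had -0.365 and 0.325. Fgf17, a relative of Fgf8, had -0.205, Fgf16, a relative of Fgf9 and Fgf20, had -0.23, and the endocrine ligands Fgf21 and Fgf23 had -0.25 and 0.19. The 4 intracellular FGF homologous factors, which do not signal through FGF receptors, had 1 fall, that of Fgf13 with a log2 fold change of -0.605 at its brighter probe. Its other probe gave -0.62 and did not pass (adjusted p = 0.0560 in limma).

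FGFs bind their receptors with co-receptors and heparan sulphate chains, and transcripts of the co-receptor genes and of the genes that make the chains were read. Of 17 measured co-receptors and binding proteins, 2 rose, 2 fell and 13 did not pass, a share of 23.5% called against 16.9% of all named genes, with a median log2 fold change of -0.22. Gpc4, a glypican that carries heparan sulphate, read 8.43 and 8.70 in Bmp4 OE arrays, against 10.05 and 10.21 in controls, a log2 fold change of -1.57. Its other probe gave -0.52 and did not pass. Sdc1, a syndecan of epithelia and of early tooth mesenchyme, fell at both probes, with -1.05 and -0.695. Fgfrl1, a receptor-like protein without a kinase domain, rose with 0.81, from a probe that read 11.08 and 10.80 in Bmp4 OE arrays and 10.08 and 10.18 in controls. Gpc3, another glypican, rose with 0.47, near the top of the scale.

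Of 15 genes that build or edit heparan sulphate, 1 rose, 2 fell and 12 did not pass, 3 called of 15, against 16.9% of all named genes, with a median log2 fold change of -0.08. Hs6st2, a sulphotransferase that adds 6-O-sulphate, read 9.52 and 9.54 in Bmp4 OE arrays, against 10.83 and 10.83 in controls, and its other probe also fell, with log2 fold changes of -1.30 and -1.17. Sulf2, a sulphatase that removes 6-O-sulphate outside the cell, fell with -0.68. Ugdh, which makes the sugar precursor of these chains, rose with 1.385. It read 7.84 and 8.21 in Bmp4 OE arrays and 6.55 and 6.73 in controls, with both controls below the lower quartile. Of 18 measured signal transducers, 2 rose, 1 fell and 15 did not pass, a share of 16.7% against 16.9% of all named genes, and the median was -0.03. The kinase genes Map2k1 and Braf rose with 0.55 and 0.51 and the GTPase gene Hras fell with -0.485, and the other Hras probe gave -0.125 and did not pass. Shc1 and Crk were not called at their brightest probes, but each had a dimmer probe that fell. These gave -0.925 for Shc1 and -0.565 for Crk (adjusted p = 0.0173 and 0.033 in limma). Under the rule of any probe, 3 transducers fell.

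Of 16 measured feedback inhibitors and ETS targets, genes that FGF signalling is known to switch on, 8 fell, 0 rose and 8 did not pass, against 9.54% of all named genes lower and 7.39% higher, with a median log2 fold change of -0.47 (1 higher and 11 lower at an unadjusted p under 0.05 in limma). The list was chosen with results of these arrays known and is not independent evidence. With any single array left out, 0 of the 16 passed the adjusted threshold, and 9 or 10 were lower at the unadjusted p. Dusp6, the ERK phosphatase, read 9.27 and 9.09 in Bmp4 OE arrays, against 11.03 and 11.11 in controls. Etv5, an ETS factor, read 8.99 and 9.06 in Bmp4 OE arrays, against 10.53 and 10.70 in controls. Both genes lay more than a log2 unit lower in every Bmp4 OE array, with log2 fold changes of -1.89 and -1.59. Ccnd1, a cyclin of the G1 phase, had -1.11 at its brightest probe, and its other 3 probes also fell. Etv4, a further ETS factor, had -0.875. The inhibitor genes Spry2, Spred1 and Il17rd and the phosphatase gene Dusp4 made up the rest of the 8. The other probes of Spred1 and Il17rd also fell, with -0.9 and -0.67. The other Dusp4 probe gave -0.58 and did not pass (adjusted p = 0.0811 in limma), with both Bmp4 OE arrays below the lower quartile. Of the 8 that did not pass, Spred2 had the highest value, 1.13 at its brightest probe (adjusted p = 0.0517 in limma). Its other probe gave 0.785 and passed (adjusted p = 0.0224 in limma). Rnd3, Spry4, Egr1 and Myc had 0.365, 0.07, 0.05 and 0.02 at their brightest probes. Etv1, Spry1 and Spred3 had -0.28, -0.375 and -0.395.

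Of 9 mesenchymal genes that oral FGF8 is known to induce or maintain, 5 fell, 2 rose and 2 did not pass, against 9.54% of all named genes lower and 7.39% higher, with a median log2 fold change of -0.945. Barx1, a homeobox gene of the proximal arch that BMP4 is known to repress, fell with -3.15, and the LIM-homeobox gene Lhx8 and the homeobox genes Dlx1 and Pitx1 fell with -1.47, -1.34 and -1.28. Gsc was the fifth to fall, with -0.945. Msx1, which BMP4 is also known to induce, and Dlx2 rose, with 1.01 and 0.415, while Lhx6 and Pax9 did not pass, at 0.325 and 0.01. Several of these genes have other regulators, and the part of FGF in their values was not tested. Like the list of feedback inhibitors, this list was chosen with results of these arrays known and is not independent evidence.

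**Figure D4:**
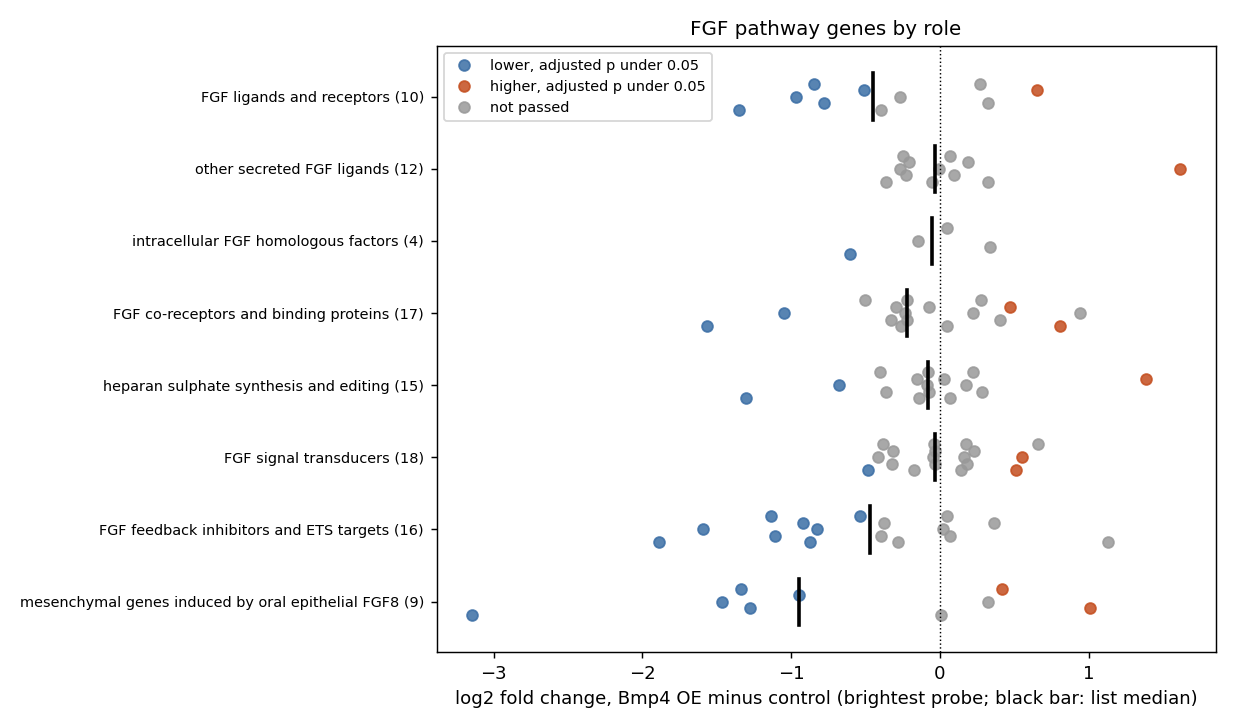
Log2 fold change of Bmp4 OE over control for every measured gene of the FGF lists, 1 point per gene through its brightest probe, with the number of genes in brackets and a black bar at the list median. The 10 ligands and receptors, the feedback inhibitors and ETS targets and the genes induced by FGF8 have medians of -0.45, -0.47 and -0.945, and the other lists have medians between -0.22 and -0.03.

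Profiles were compared by the root-mean-square distance between log2 values over the 4 arrays, each gene centred on its control mean. The nearest genes were sought for the most changed ligand of the set and for its most lowered receptor. For Fgf10 they were Hpgd, which degrades prostaglandins, at a distance of 0.06, Natd1 at 0.06 and Esm1, a secreted proteoglycan of endothelium, at 0.07, with log2 fold changes of -1.43, -1.40 and -1.29. For Fgfr1 they were Cpne3 at 0.02, the SoxB1 factor gene Sox3 at 0.02 and Rad1, a protein of the DNA damage checkpoint, at 0.03, with -0.76, -0.76 and -0.80. Within 0.1 log2 units lay 8 genes for Fgf10 and 166 for Fgfr1, and 4 arrays cannot order genes that close.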

How the data were processed

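Per the labels' protocols, RNA of whole mandibles was amplified with aminoallyl nucleotides and conjugated to the dye. The authors deposited a single log2 intensity for each probe and array. All 4 columns hold the same set of values once sorted, so the deposited log2 scale had been quantile-normalised and hides any shift shared by most genes. No source used here gives the scanner, background correction or software, and calls of detection were not used. With so few arrays, their number limits the precision.

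Of 29922 probes, 21020 had 1 gene symbol. Of these, 17558 were current, 3410 were updated through a synonym in the RefSeq table (GRCm38.p6) and 52 were kept unmatched. A gene was read through its brightest probe, and every probe of the 10 members is given.

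Each probe was tested in limma 3.58.1 (R 4.3.3, lmFit and eBayes, two-sided, 2 residual and 3.59 prior degrees of freedom), with Benjamini-Hochberg adjustment over all probes and a threshold of 0.05. The fit was also run on simulated data with variances drawn from its own prior, which cannot show whether these arrays meet its assumptions. With 2 arrays a side, 0.333 is the smallest p that exact permutation allows, so none was run. Errors are standard errors or 95% intervals of the fit, as named.

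Genes named are all 10 members with all probes, every other secreted FGF ligand, up to 4 passing genes with the smallest p in each of 14 other lists, usual lineage markers and the 3 nearest profiles. Other list members are named where they are usual readouts or complete a count. The members and lists were chosen with earlier results of these data known. Alternatives were 2 filters on dim probes, median centring, renewed quantile normalisation, an offset of 50, a variance trend and no moderation. Further ones were the replicate number as a block, each array left out, a 2-fold threshold with unadjusted p, and other rules for several probes.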

Additional observations from a re-analysis of the deposited data

How the results depend on the processing

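Log2 fold changes of all 10 members kept their sign under every alternative run, including each left-out array. Filters on dim probes, median centring, renewed quantile normalisation, log2 of the linear value plus 50, the variance trend and the mean of a gene's probes kept all 6 calls, except that Fgf8 was removed by the median filter, as was Fgf20, which the lower-quartile filter removed too. Without moderation, 0 members were called (8 higher and 11 lower probes in all), with 5 lower and 2 higher at an unadjusted p under 0.05, and the targets gave 0 lower (10 at the unadjusted p). The 2-fold threshold with unadjusted p left 1 lower member (Fgf10) and 0 higher, 4 targets lower and 1 higher (Spred2), and 422 lower and 364 higher probes. Target genes called higher were 1 instead of 0 under both filters, the variance trend, the mean of probes and the rule of any probe. Leaving out 1 array gave 0 to 0 called members, targets and probes in either direction, while log2 fold changes ranged from -1.53 to -1.17 for Fgf10, from -1.08 to -0.855 for Fgf8 and from 0.6 to 0.71 for Fgfr2. With the replicate number as a block (replicate block), 0 members, targets and probes were called, with 6 members lower and 1 higher at an unadjusted p under 0.05. The labels give the numbers no shared litter or day. Deviations of equal numbers correlated with r = -0.07, a single value because the 2 deviations of a group mirror each other. Whether samples of equal number share a litter or day therefore cannot be told. The difference of epithelial and mesenchymal ligands, 0.195, was 0.025 without probes below the lower quartile or without Fgf20, 0.085 without probes below the median, 0.31 without Fgf8, 0.615 without Fgf18 and -0.225 without Fgf10, since each setting averages fewer genes. Dim probes such as that of Fgf20, and values near 16, give little range.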
